A study of Homo sapiens with 16 samples.

Results

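PI15, LIN28A, PPP2R2B, CTCFL and CAPN6 are 5 genes whose RNA levels lay far apart in the control cultures of this study. They are 5 of 33121 rows in the deposited count table, and all 5 passed the filter on low counts that left 15569 tested genes. They were chosen by the size of their measured difference between the control sets, so that difference is described here without a test. The question asked of them was which control set each knockout resembled.

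RNA from HAP1, a near-haploid human cell line, was sequenced after poly-A selection in 16 libraries, 4 in each of 4 groups. In 1 experiment cells with the genotype SLC30A10_delta, which lack a manganese exporter, were set against SLC30A10+/+ cells. In the other, a different gene was deleted (the second knockout) and its wild-type cells served as the second control set. The labels give both control sets the same line identifier, and each knockout a separate one. The labels give no added agent, date, batch or number of clones, and nothing says that the 4 libraries of a group came from separate cultures. P-values therefore measure the spread between these libraries, which may be technical. Library totals ran from 16058856 to 16648151 counts. SLC30A10 RNA did not show the deletion, with 6 to 9 counts per library in its control and 3 to 11 in its knockout. Of 12 haematopoietic markers, chosen because the line descends from a leukaemia, 10 or 11 lay at or under 3 counts in every library of each group, and their summed level was 0.426 to 0.849 CPM (counts scaled to a common library size).

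The 5 genes have different roles. PI15 encodes a secreted peptidase inhibitor of the CAP superfamily, the cysteine-rich secretory proteins. LIN28A encodes an RNA-binding protein of embryonic and germ cells that blocks maturation of the let-7 microRNAs. PPP2R2B encodes a regulatory B subunit of protein phosphatase 2A, best known from brain. CTCFL, also called BORIS, is a germline paralog of the chromatin insulator protein CTCF and is switched on in many tumours. CAPN6 encodes a calpain that lacks the catalytic cysteine and binds microtubules, and is known from embryonic tissue and placenta. Genes with such restricted expression are usually shut off by DNA methylation or repressive chromatin in most cells.

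The genes lie on 5 chromosomes of GRCh38.p14 in the RefSeq annotation. LIN28A spans chromosome 1 from 26410817 to 26429728, PPP2R2B chromosome 5 from 146580742 to 147081520, CTCFL chromosome 20 from 57495965 to 57525652, and CAPN6 chromosome X from 111245099 to 111270483. GENCODE places an antisense gene over part of PPP2R2B, and without a stated strand setting their reads cannot be told apart. Promoter windows of 3 of the 5 genes were examined. LIN28A had no promoter entry and PI15 was left out. Starts with an annotated exon further up the window were dropped. The window of PPP2R2B lies inside the gene span given above. For CTCFL, CAPN6 and PPP2R2B the bases before the most upstream start kept are shown, because CTCFL and CAPN6 were low, and PPP2R2B high, in the same control set. All are minus-strand genes, printed 5′ to 3′ from RefSeq (GRCh38.p14), less any bases inside annotated exons, with CG dinucleotides in capitals.

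CTCFL, chr20:57525653-57525902: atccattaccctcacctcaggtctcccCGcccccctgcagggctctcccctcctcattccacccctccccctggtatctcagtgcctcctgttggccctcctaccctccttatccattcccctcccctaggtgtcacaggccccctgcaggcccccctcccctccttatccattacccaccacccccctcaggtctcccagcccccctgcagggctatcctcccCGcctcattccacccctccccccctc
CAPN6, chrX:111270524-111270733: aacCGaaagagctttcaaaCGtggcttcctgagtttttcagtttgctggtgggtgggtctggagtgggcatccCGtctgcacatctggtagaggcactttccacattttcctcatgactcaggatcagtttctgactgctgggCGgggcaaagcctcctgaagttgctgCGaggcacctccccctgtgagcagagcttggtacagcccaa
PPP2R2B, chr5:147056028-147056211: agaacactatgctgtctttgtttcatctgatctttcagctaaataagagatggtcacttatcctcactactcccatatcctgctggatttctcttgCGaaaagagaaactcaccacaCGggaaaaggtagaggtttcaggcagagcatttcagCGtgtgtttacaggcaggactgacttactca

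These windows hold few CG dinucleotides. The letters CG read the same on both strands. In the full 250 bases before the start there were 2 for CTCFL, 5 for CAPN6 and 4 for PPP2R2B, against a median of 11 over 35116 promoter windows of that length. At least as many were held by 85.3%, 65.7% and 70.7% of all windows, and any CG by 93.9%. Other tabulated starts were richer: the window of another CTCFL start had 15 and that of another PPP2R2B start had 18. Gene counts do not tell which start was used.

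The control sets were set side by side first. By fitted log2 difference, among 11624 tested genes that averaged 5 CPM or more over the control libraries, PI15, LIN28A and PPP2R2B headed the genes higher in the SLC30A10 control. CTCFL and CAPN6 ranked behind CHAC1, at -2.74, among those furthest below. Just inside these limits PPP2R2B differed by 2.13 and CAPN6 by -2.21 on the log2 scale. Just outside, PCDH9 differed by 1.68 and DDIT4 by -1.80. Without the minimum level, the 5 genes ranked 5 (PI15), 9 (CTCFL), 14 (LIN28A), 19 (CAPN6) and 24 (PPP2R2B) by absolute difference among all tested genes. In that contrast 39.3% of tested genes passed an adjusted p of 0.05 and 1.4% also differed by 2-fold. The libraries of the control sets did not overlap for 36.3% of tested genes, nor for any of the 5.

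**Figure D1:**
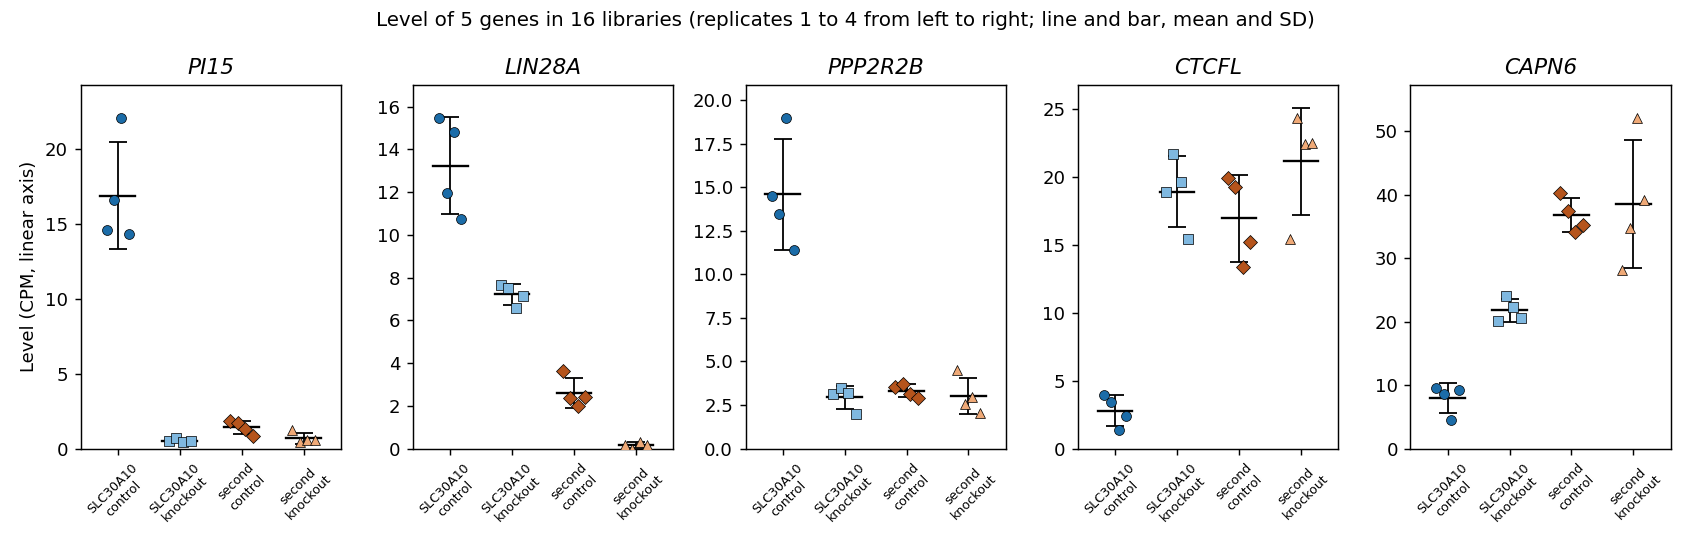
Level in CPM (linear axes from 0) of PI15, LIN28A, PPP2R2B, CTCFL and CAPN6 in each of 16 libraries; points are libraries, lines are group means and bars are SD (n = 4). PI15 and PPP2R2B stand high only in the SLC30A10 control libraries and CTCFL low only there, while LIN28A and CAPN6 have a level of their own in the SLC30A10 knockout.

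PI15, the secreted inhibitor, was abundant in 1 of the 4 groups. The gene spans chromosome 8 from 74824534 to 74855029 (GRCh38.p14), where an antisense gene overlaps it whose reads cannot be told apart. The SLC30A10 control libraries held 240, 273, 362 and 235 counts, a level of 16.9 ± 3.59 CPM (SD, n = 4). The second control libraries held 30, 28, 22 and 14 counts, or 1.43 ± 0.441 CPM. The SLC30A10 knockout held 8, 11, 7 and 8 counts, or 0.527 ± 0.109 CPM, and the second knockout 20, 7, 9 and 10, or 0.707 ± 0.368 CPM. Each SLC30A10 control library lay above each of the other 12, and the knockout means lay on the far side of the second control set rather than between the sets.

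PPP2R2B, the phosphatase subunit, was likewise high in the SLC30A10 control alone, but without a clear drop of the knockouts below the second control set. Its counts were 238, 222, 311 and 187 in the SLC30A10 control, a level of 14.6 ± 3.19 CPM (SD, n = 4). They were 58, 61, 52 and 48 in the second control, or 3.32 ± 0.362 CPM. The SLC30A10 knockout had 50, 56, 52 and 32 counts, or 2.94 ± 0.653 CPM, and the second knockout had 72, 42, 49 and 34, or 3.02 ± 1.05 CPM. The 3 lower groups overlapped one another.

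LIN28A gave 4 separate levels. Its counts were 254, 197, 243 and 176 in the SLC30A10 control, or 13.2 ± 2.27 CPM (SD, n = 4), and 123, 121, 107 and 115 in the SLC30A10 knockout, or 7.22 ± 0.486 CPM. They were 59, 39, 33 and 40 in the second control, or 2.60 ± 0.702 CPM. The second knockout had 3, 0, 5 and 3 counts, or 0.168 ± 0.125 CPM, close to the level of 3 counts (0.181 to 0.187 CPM). No group overlapped its neighbour in this order. The SLC30A10 control and its knockout did not overlap for 38.3% of tested genes, and for the other neighbouring groups that share is not given here.

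CTCFL, the CTCF paralog, was low in the SLC30A10 control alone. Its counts there were 65, 56, 23 and 39, or 2.78 ± 1.13 CPM (SD, n = 4). The second control had 326, 318, 222 and 250 counts, or 16.9 ± 3.18 CPM. The SLC30A10 knockout had 304, 349, 320 and 248, or 18.9 ± 2.60 CPM, and the second knockout 247, 397, 370 and 372, or 21.2 ± 3.95 CPM. The 3 higher groups overlapped.

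CAPN6, the calpain, had 3 levels. The SLC30A10 control had 158, 141, 73 and 151 counts, or 7.96 ± 2.38 CPM (SD, n = 4). The SLC30A10 knockout had 324, 388, 364 and 331, or 21.8 ± 1.81 CPM, above each control library of its own experiment and below each library of the second experiment. The second control had 657, 618, 566 and 580, or 36.8 ± 2.69 CPM. The second knockout had 450, 566, 860 and 648, or 38.5 ± 10.1 CPM, which overlapped its control. Libraries of the SLC30A10 knockout did not overlap those of its own control for 38.3% of tested genes, nor those of the second knockout for 43.3%. Against the second control set that share is not given here.

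The direct comparison of the knockouts takes its difference from none of the libraries that chose these genes, although the control libraries entered the filter, the scaling and the estimate of spread. It asks whether the knockouts differ from each other in the way the control sets do. LIN28A and CAPN6 passed the test and did so in the direction of the control sets, whereas PPP2R2B and CTCFL did not pass. PI15 passed the filter through its counts in the control libraries and not in a fit of the 8 knockout libraries alone, so its difference is given as a description. The calls are 2 of the other 4 genes, where 50.5% of all tested genes passed (edgeR quasi-likelihood test, Benjamini-Hochberg adjusted p under 0.05). LIN28A was higher in the SLC30A10 knockout by 5.36 ± 0.30 (log2, SE; adjusted p = 4.27e-14), higher in 4 of 4 libraries. As summed counts this was 466 against 11, a ratio of 42.9 with an exact 95% counting interval of 23.8 to 86.6, which covers counting error only. CAPN6 in the SLC30A10 knockout was lower by a log2 difference of -0.82 ± 0.14 (edgeR adjusted p = 1.87e-05). The libraries of the knockouts did not overlap for LIN28A and CAPN6, as for 43.3% of tested genes.

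The log2 difference between the knockouts was -0.03 for PPP2R2B, with a 95% interval of -0.52 to 0.45 (edgeR adjusted p = 0.909). For CTCFL it was -0.16, with an interval of -0.47 to 0.14 (edgeR adjusted p = 0.347). PI15 had a difference of -0.41, with an interval of -1.32 to 0.50. As a description, the values that chose these genes were 2.13 for PPP2R2B, -2.60 for CTCFL and 3.56 for PI15 between the control sets. For PPP2R2B the sign rested on single libraries: the log2 difference was 0.11 without replicate 4 of the SLC30A10 knockout and 0.21 without replicate 1 of the second knockout.

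**Figure D2:**
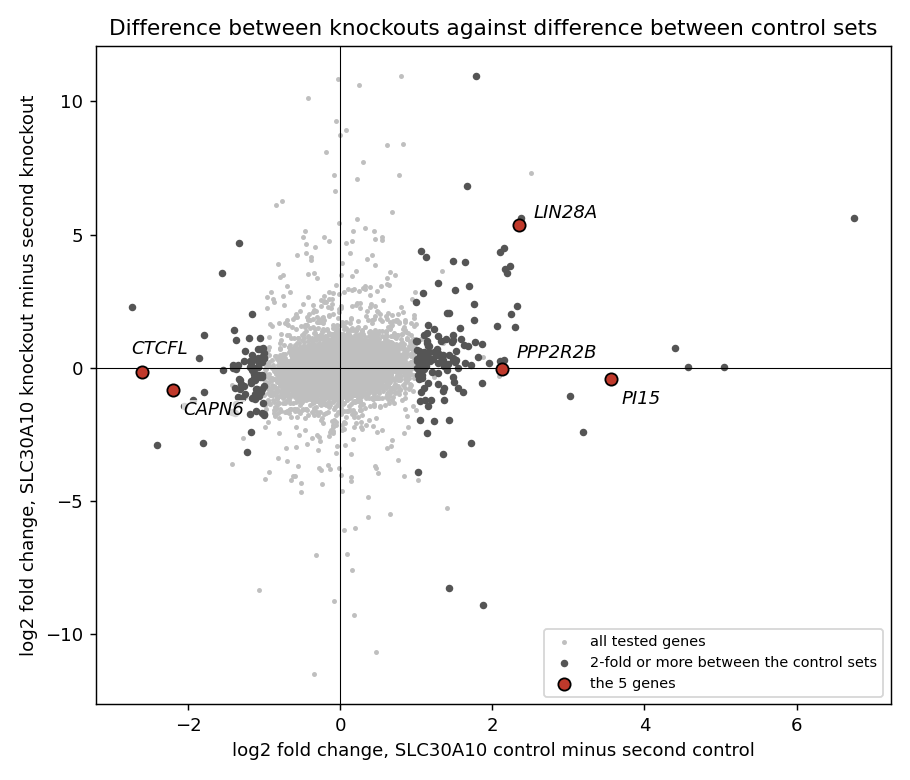
Fitted log2 fold change of each tested gene between the control sets (horizontal axis) and between the knockouts (vertical axis); grey points are all tested genes, dark points the 218 genes that differed by at least 2-fold between the control sets, red points the 5 genes. LIN28A (2.35, 5.36) and CAPN6 (-2.21, -0.82) have the same sign on both axes, and PI15, PPP2R2B and CTCFL lie near 0 on the vertical axis.

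Each knockout was then compared with its own control, the comparison the study was built on. These tests share the control libraries with the choice of the genes. By itself that choice favours differences towards the control set of the other experiment, so the calls and their shared direction are a description. In the SLC30A10 knockout all 5 genes passed against the SLC30A10 control, where 41.4% of tested genes did (edgeR, adjusted p under 0.05). PI15 fell by 4.98 ± 0.22 (log2, SE; edgeR adjusted p = 6.88e-16), PPP2R2B fell by 2.31 ± 0.17 (2.66e-11) and LIN28A fell by 0.87 ± 0.13 (5.39e-06). CTCFL rose by 2.76 ± 0.20 (8.38e-12) and CAPN6 rose by 1.45 ± 0.17 (1.02e-07). The libraries of these groups were fully apart for all 5 genes, as they were for 38.3% of tested genes.

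Against the second control set, a culture of the other experiment, the same knockout passed for 3 of the 5 genes, where 44.3% of tested genes passed. The log2 differences of PPP2R2B (-0.17, 95% interval -0.65 to 0.30, edgeR adjusted p = 0.547) and CTCFL (0.16, interval -0.16 to 0.47, adjusted p = 0.394) did not pass. PI15 was lower by a log2 difference of -1.42 ± 0.36 (edgeR adjusted p = 0.00195), LIN28A was higher by 1.47 ± 0.17 (9.76e-08) and CAPN6 was lower, at -0.75 ± 0.14 (7.64e-05). Group and experiment cannot be told apart in this comparison, and its control libraries also chose the genes, so the calls are a description.

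The second knockout passed against its own control for 2 of the 5 genes, where 13.7% of tested genes passed. LIN28A fell by 3.89 ± 0.38 on the log2 scale (edgeR adjusted p = 8.52e-09), from 171 summed counts to 11. PI15 fell by 1.01 ± 0.33 (edgeR adjusted p = 0.0411) from 94 summed counts to 46, with overlap between the groups. That call was lost, at adjusted p from 0.0664 to 0.146, when any of 6 libraries was left out: replicate 1, 2 or 3 of the second control, or replicate 2, 3 or 4 of the second knockout. CTCFL (0.32, 95% interval 0.01 to 0.63, adjusted p = 0.144), CAPN6 (0.07, interval -0.21 to 0.35, adjusted p = 0.793) and PPP2R2B (-0.14, interval -0.61 to 0.33, adjusted p = 0.743) did not pass in edgeR. CTCFL passed, at adjusted p = 0.0218, without replicate 1 of the second knockout. Against the SLC30A10 control set, where 47.8% of tested genes passed, the second knockout differed in all 5 genes, by log2 values from -6.24 for LIN28A to 2.92 for CTCFL. Those control libraries also chose the genes, so these calls are a description.

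To put the 5 genes on a common scale, the mean log2 CPM of a knockout was placed between the control sets, with 0 at the second control set and 1 at the SLC30A10 control set. The control sets at both ends of this scale chose the genes, so the positions and the nearer control are a description. The SLC30A10 knockout lay at -0.35 ± 0.07 for PI15, -0.09 ± 0.17 for PPP2R2B, -0.06 ± 0.08 for CTCFL, 0.33 ± 0.05 for CAPN6 and 0.63 ± 0.04 for LIN28A (SD over 4 libraries). It was nearer to the control set of the other experiment for 4 of 5 genes, in 4 of 4 libraries each, and nearer to its own only for LIN28A. The second knockout lay at -0.27 ± 0.16 for PI15, -0.09 ± 0.22 for PPP2R2B, -0.12 ± 0.11 for CTCFL, -0.02 ± 0.17 for CAPN6 and -1.44 ± 0.33 for LIN28A. It was nearer to its own control set for all 5. The LIN28A value lies outside the range between the control sets, on the low side, and depends on the prior count because of the low counts there: with a prior count of 8 in place of 2 it was -1.03.

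**Figure D3:**
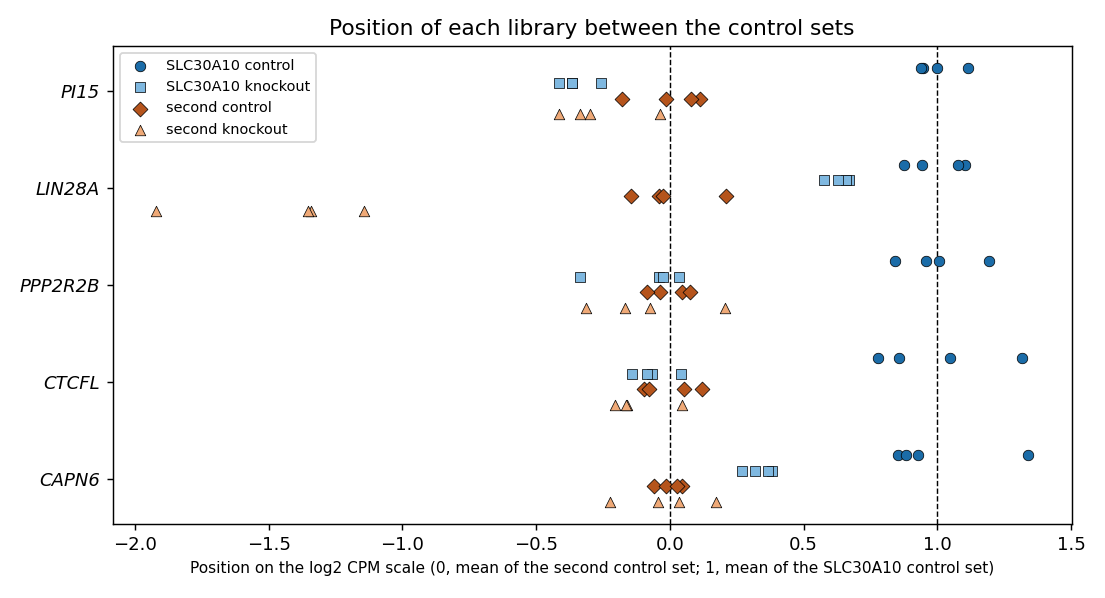
Position of each library on the log2 CPM scale, where dashed lines mark the mean of the second control set (0) and of the SLC30A10 control set (1); each symbol is a library. Both knockouts cluster near or below 0 for PI15, PPP2R2B and CTCFL, while the SLC30A10 knockout lies at 0.33 for CAPN6 and 0.63 for LIN28A.

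The same count was made for all 218 genes that differed by at least 2-fold, at an edgeR adjusted p under 0.05, between the control sets. Of these the SLC30A10 knockout was nearer to the second control set in 112 (51.4%) and the second knockout in 163 (74.8%). Over all 15569 tested genes the shares were 49.3% and 70.4%. Both knockouts were nearer to the second control set, as for PI15, PPP2R2B, CTCFL and CAPN6, in 87 of the 218 (39.9%) and in 34.8% of all tested genes. Each was nearer to its own, as for LIN28A, in 76 (34.9%) and in 35.6% of all. For the second knockout the share nearer to its own control set moved with the limit, to 80.3% of 878 genes at 1.5-fold, 85.2% of 27 genes at 4-fold and 83.6% of all 6111 genes that passed between the control sets. For the SLC30A10 knockout the share nearer to the second control set was 48.5%, 48.1% and 47.5% of the same genes.

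Between the knockouts, 124 of the 218 genes passed the test (56.9%), 87 in the direction of the control sets (39.9%) and 37 in the opposite direction (17.0%). Over all tested genes these shares were 50.5%, 34.7% and 15.8%. The median absolute log2 difference between the knockouts was 0.75 for the 218 and 0.20 for all genes.

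The libraries of a group also differed among themselves in these genes. Within the SLC30A10 control, replicate 3 lay furthest from the second control set for 4 of the 5 genes, with the highest PI15 and PPP2R2B and the lowest CTCFL and CAPN6. For LIN28A it was replicate 1. CTCFL had 1.40 CPM in replicate 3 and 2.38 to 3.96 in the other three, and CAPN6 had 4.45 against 8.56 to 9.62. Replicate 3 was likewise the furthest library for 110 of the 218 genes (50.5%), but also for 48.9% of all tested genes, a direction set partly by these libraries themselves. Without it the log2 changes in the SLC30A10 knockout were -4.83 for PI15, -2.15 for PPP2R2B, 2.54 for CTCFL and 1.25 for CAPN6.

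In the second knockout, replicate 1 stood on the side of the SLC30A10 control for the same 4 genes. It had the highest PI15 (20 counts against 7 to 10) and PPP2R2B (72 against 34 to 49), and the lowest CTCFL (247 against 370 to 397) and CAPN6 (450 against 566 to 860). It was the furthest library on that side for 98 of the 218 genes (45%) and for 33.5% of all tested genes. Here the direction came from libraries other than those ranked. In the SLC30A10 knockout the largest such share for any replicate was 31.7%. Without replicate 1 the PI15 change of the second knockout was -1.42, with an edgeR adjusted p of 0.00883.

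**Figure D4:**
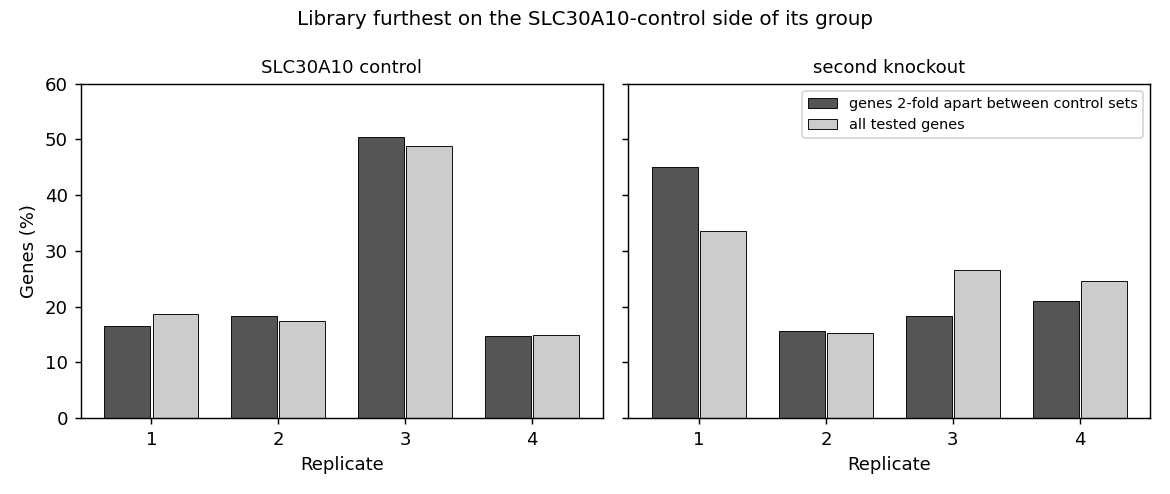
Share of genes (%) for which each replicate lay furthest on the SLC30A10-control side of its group, in the SLC30A10 control (left) and the second knockout (right); dark bars are the 218 genes that differed by 2-fold between the control sets, light bars all tested genes. Replicate 3 of the SLC30A10 control holds 50.5% and 48.9%, and replicate 1 of the second knockout 45% and 33.5%.

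Across the 16 libraries the levels of these genes varied together, which restates their shared group means. Pearson's r of log2 CPM was 0.96 for PI15 and PPP2R2B, 0.93 for CTCFL and CAPN6, and -0.95 for PI15 and CTCFL. LIN28A went with the others less closely, at absolute values of 0.57 to 0.71. Among genes that averaged 5 CPM or more over the 16 libraries, those most like PI15 were LINC00617 (r = 0.97), CALD1 (0.97) and PPP2R2B. Most like LIN28A were ANK2 (0.98), THRB (0.96) and SOGA3 (0.96), and THRB had 21.7, 16.7, 10.1 and 1.93 CPM in the SLC30A10 knockout, its control, the second control and the second knockout. Most like PPP2R2B were SAFB, SPARC and PSPC1, and most like CTCFL were ZNF83, GPR137B and UBE2G1, all at 0.96. For CAPN6 they were LTA4H (0.97), NOTUM (0.96) and CD47 (0.96). SPARC, which encodes a matrix glycoprotein, had 159 CPM in the SLC30A10 control and 71.8 to 87.5 CPM in the other groups, and UBE2G1 152 against 192 to 207.

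The nearest tested genes on the chromosome were examined to see whether the differences extended beyond the genes themselves. CTCFL lay between RBM38, with 63.9 to 70.1 CPM in the 4 group means, and PMEPA1, with 9.57 to 9.80. The smallest edgeR adjusted p over the 5 tested comparisons was 0.0642 for RBM38 and 0.784 for PMEPA1. CRISPLD1, a CAP superfamily gene next to PI15, had 20.3 to 22.9 CPM and a smallest edgeR adjusted p of 0.0969. GDAP1, on the other side of PI15, fell by 0.43 ± 0.08 in the SLC30A10 knockout (edgeR adjusted p = 4.00e-05). DPYSL3, which lies 309.3 kb from PPP2R2B, had 25.3 and 29.2 CPM in the SLC30A10 and second control sets, and fell by 1.12 ± 0.10 and 2.23 ± 0.11 in the SLC30A10 and second knockouts.

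PAK3, which encodes a kinase of neurons and lies 17.7 kb from CAPN6, shared its difference between the control sets. Its level was 12.6 CPM in the SLC30A10 control, 24.4 CPM in the second control, 24 CPM in the SLC30A10 knockout and 15.1 CPM in the second knockout. It rose by 0.93 ± 0.09 in the SLC30A10 knockout and fell by 0.69 ± 0.09 in the second knockout (edgeR adjusted p = 6.03e-09 and 2.17e-06), where CAPN6 had 0.07. ALG13, the neighbour on the other side, rose by 0.36 ± 0.06 in the SLC30A10 knockout. DHDDS, 2.6 kb from LIN28A, was higher in the SLC30A10 than in the second knockout by 0.32 ± 0.07 (edgeR adjusted p = 0.000264). AIM1L, the other neighbour of LIN28A, differed in the same direction by 0.55 ± 0.21 (adjusted p = 0.0303).

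Partners and relatives of the 5 genes were read from lists, beginning with the let-7 pathway. LIN28A acts on let-7 precursors, whose mature forms share a seed, the bases that pair with target RNAs. The 8 let-7 5p forms in the RefSeq table had 1 seed among them, and 3 are printed to show it, with bases 2 to 8 in capitals. Poly-A libraries do not measure these RNAs.
hsa-let-7a-5p: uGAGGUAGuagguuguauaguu
hsa-let-7d-5p: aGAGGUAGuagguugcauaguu
hsa-let-7g-5p: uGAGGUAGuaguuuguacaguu

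Of the 30 tested genes of let-7 processing and let-7 targets, 6 were higher and 11 lower in the SLC30A10 than in the second knockout, with a median log2 difference of -0.05, where the median over all genes was -0.005. These 17 are 56.7%, beside 50.5% of all tested genes. Against their own controls 3 rose and 10 fell in the SLC30A10 knockout (43.3%, beside 41.4% of all), and 2 rose and 1 fell in the second (10%, beside 13.7%). CCND1, which encodes cyclin D1, was higher in the SLC30A10 than in the second knockout by 1.05 ± 0.07 (log2, SE), with 54.0 ± 2.44 against 26.1 ± 2.10 CPM (SD, n = 4). IGF2BP3, an RNA-binding target of let-7, was lower, at a log2 difference of -0.64 ± 0.04, with 134 against 209 CPM. IGF1R, a growth factor receptor, was also lower, at -0.64 ± 0.06, and rose by 0.23 ± 0.06 in the second knockout. LIN28B, the paralog of LIN28A and named here for that reason, had 115 ± 6.47 CPM in the SLC30A10 control, 89.4 ± 6.47 in its knockout, 83.4 ± 4.50 in the second control and 80.3 ± 12.6 in the second knockout (SD, n = 4). It fell by 0.37 ± 0.07 in the SLC30A10 knockout (edgeR adjusted p = 0.000192), and in the second knockout its log2 difference of -0.06 did not pass. Genes used as markers of pluripotent cells, a list of 6 that includes LIN28B, summed to 2384 to 3283 CPM in the SLC30A10 control, 2472 to 2603 in its knockout, 3071 to 3573 in the second control and 3752 to 4402 in the second knockout. SOX2 made up most of that sum, with 2177 CPM in the SLC30A10 knockout and 3841 CPM in the second. Of the 5 tested markers only SOX2 was lower in the SLC30A10 than in the second knockout, at a log2 difference of -0.82. TDGF1 (4.49 ± 0.32, SE), POU5F1 (0.32) and DPPA4 (0.27) were higher, and LIN28B did not pass. The 4 that passed are 80%, beside 50.5% of all tested genes. TDGF1 averaged 2.23 CPM in the SLC30A10 knockout and 0.0918 CPM in the second. The latter lies under the level of 3 counts (0.181 to 0.187 CPM), so the size of its difference rests on very few counts. The part of these markers in the LIN28A levels was not tested.

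Of 28 tested genes of protein phosphatase 2A other than PPP2R2B, 8 were higher and 5 lower in the SLC30A10 than in the second knockout, with a median of 0.04. These 13 are 46.4%, beside 50.5% of all tested genes. Against their own controls, 4 rose and 7 fell in the SLC30A10 knockout (39.3%, beside 41.4% of all), and 1 rose and 3 fell in the second (14.3%, beside 13.7%). The regulatory subunits PPP2R3A and PPP2R2C were higher by 0.71 ± 0.07 and 0.43 ± 0.05 and PPP2R5B was lower, at -0.36 ± 0.08, between the knockouts (log2, SE). PPP2R3A rose by 0.72 ± 0.07 and PPP2R2C by 0.65 ± 0.05 against the SLC30A10 control.

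Of 12 tested genes of CTCF and the cohesin complex, 3 were higher and 5 lower between the knockouts (66.7%, beside 50.5% of all tested genes), with a median of -0.04. SMC1A and STAG2, cohesin subunits, were higher by 0.24 ± 0.03 and 0.20 ± 0.04, and NIPBL, the cohesin loader, was lower, at -0.26 ± 0.05. In the SLC30A10 knockout 2 rose and 5 fell (58.3%, beside 41.4% of all). In the second knockout 0 of 12 passed in edgeR and 0 in DESeq2, beside 13.7% of all genes in edgeR, and 4 had an unadjusted edgeR p under 0.05. CTCF, named as the paralog of CTCFL, had 132 ± 5.64 CPM in the SLC30A10 control and fell by 0.23 ± 0.04 in its knockout, while its log2 difference of -0.11 in the second knockout did not pass (edgeR adjusted p = 0.0784). Of 49 cancer-testis genes in the table only 3 passed the filter on low counts. DAZL, a germ cell RNA-binding protein, rose in both knockouts, by 1.08 ± 0.06 where SLC30A10 was deleted and by 0.20 ± 0.06 in the second (edgeR adjusted p = 1.74e-13 and 0.0238). ACTL8 fell by 1.95 ± 0.23 and fell by 2.59 ± 0.24, and SYCP3 did not pass in either. For each deletion the 2 of 3 that passed are 66.7%, beside 41.4% (SLC30A10) and 13.7% (second) of all tested genes. ACTL8 levels were low: 2.48 CPM against 0.635 CPM where SLC30A10 was deleted, and 2.72 CPM against 0.442 CPM in the other experiment.

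Of 10 tested calpain genes, 2 were higher and 1 lower between the knockouts (30%, beside 50.5% of all tested genes), with a median of -0.03. CAPNS1, the small regulatory subunit, was lower, at -0.23 ± 0.04, whereas CAST, the calpain inhibitor, was higher by 0.16 ± 0.04 and CAPN15 by 0.17 ± 0.06. In the SLC30A10 knockout 3 rose and 2 fell (50%, beside 41.4% of all), and in the second 3 fell and the other 7 did not pass (30%, beside 13.7%). Of 4 tested CAP superfamily genes other than PI15, 1 passed between the knockouts (25%, beside 50.5% of all tested genes). This was GLIPR2, which was lower, with a log2 difference of -0.56 ± 0.10 (edgeR adjusted p = 3.03e-05). GLIPR1 (0.26, edgeR adjusted p = 0.263) and GLIPR1L2 (-0.23, adjusted p = 0.593) did not pass. Each knockout set against its own control gave 0 of 4, beside 41.4% (SLC30A10) and 13.7% (second) of all tested genes.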

How the data were processed

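Poly-A RNA of 16 HAP1 libraries was sequenced as read pairs on a DNA nanoball platform, per the labels. The submitters' processing notes name HISAT2, featureCounts, DESeq2 and builds hg38 and GRCh38, and versions, annotation and strand setting are not given in the sources used here. The authors deposited whole-number counts per gene symbol. The authors also deposited a normalized signal, equal to the counts times a constant per library within 5.13e-06, which served as an alternative scaling. Of the count rows, 28 are symbols turned into dates; they stayed in the fits.

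Tests ran on the counts in edgeR 4.0.16 (R 4.3.3). The expression filter (minimum count 10, minimum total 15) left 15569 genes, and library sizes were scaled by TMM. A quasi-likelihood model with a mean for each of 4 groups was fitted to all 16 libraries, with Benjamini-Hochberg adjustment over all tested genes and a threshold of 0.05. SE is the log2 fold change divided by the root of F, and 95% intervals use 12 residual degrees of freedom. CPM uses the scaled library size, and log2 CPM a prior count of 2.

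The members, lists and tests were chosen with earlier results of these data known. Named genes are the members, their neighbours in rank and on the chromosome, the 3 most correlated genes, and the 3 list genes with the smallest adjusted p between the knockouts; RefSeq placed 91.1% of tested genes. LIN28B and CTCF were added as paralogs, and SLC30A10 checked the deletion. The gene deleted in the second knockout is not reported here. Replicate pairs differed beyond sampling noise (chi-square per degree of freedom 1.64 to 6.83). Counts for the comparison of the knockouts were simulated over 15434 genes from the same kind of model as the fit. In them 98 genes changed 2-fold, 99 changed 4-fold and the rest were unchanged. Of the 2-fold changes 93.9% were recovered, and of the 4-fold changes 99.0%. In the data 50.5% of tested genes passed this comparison, so these shares need not hold there. Alternatives were other scalings, filters, thresholds and fits, the DESeq2 1.42.0 Wald test, a replicate block, leaving out each library, and, added after seeing the data, exact permutation tests.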

Additional observations from a re-analysis of the deposited data

How the results depend on the processing

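Between the knockouts, LIN28A and CAPN6 passed and PPP2R2B and CTCFL did not under each alternative run, leaving out libraries included; PI15 had no value in the fit of the 8 knockout libraries. The exact permutation tests, added after seeing the data, gave 0.0286 for LIN28A and CAPN6, the smallest possible with 4 against 4, and at least 0.400 for PPP2R2B and CTCFL. Leaving out 1 library turned the sign of PPP2R2B between the knockouts, over a range of -0.18 to 0.21, and in the second knockout that of CAPN6 (-0.11 without replicate 3, range -0.11 to 0.20) and PPP2R2B (0.0094 without replicate 4, range -0.38 to 0.0094). A threshold of 0.01 cut the genes called in the second knockout against its own control from 2132 to 1229 and ended its PI15 call, as did a fit of only the 8 libraries compared (adjusted p = 0.0511). Without a filter on low counts CTCFL passed there (edgeR adjusted p = 0.00171), at a log2 difference of 0.32. In that run edgeR adjusted p-values were far smaller, at 9.87e-34 for LIN28A there in place of 8.52e-09. CTCFL did not pass there in the DESeq2 Wald test (adjusted p = 0.430). Other counts of genes called stayed within 1.5 times. With a prior count of 8, PI15 in the SLC30A10 knockout lay at -0.28 and LIN28A in the second knockout at -1.03; leaving out libraries moved that PI15 position between -0.44 and -0.30. Among 27 genes at least 4-fold apart, the second knockout was nearer to the second control set in 85.2%. Same-numbered libraries correlated at -0.0318 to 0.0472 on average in the 5 comparisons, so the numbers were not treated as pairs; with the replicate block 7908, 6511, 6948, 2197 and 7476 genes passed between the knockouts, in the SLC30A10 knockout against its own and the other control set, and in the second knockout likewise, and no member's call changed. Counts of 7 to 20 per library limit PI15 in the knockouts, and counts of 0 to 5 limit LIN28A in the second knockout.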
